A study of Mus musculus with 4 samples.

Results

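The 38 genes described here serve protein folding and quality control in the endoplasmic reticulum (ER) and the stress response that runs through the transcription factor Atf4. They were chosen by symbol with earlier results of these data known, and all 38 were found among the 24771 features listed for each sample. Of them, 25 act in or at the ER (11 chaperones and co-chaperones, 4 disulfide isomerases, 7 genes of ER-associated degradation and 3 stress sensors) and 13 belong to the Atf4 arm (8 regulators and 5 enzymes of amino acid and one-carbon metabolism). The symbol Ddit3 was on 2 rows. The gene used was ENSMUSG00000025408, and the other row, ENSMUSG00000116429, which overlaps it on the same strand, was listed at 0 in all 4 samples.

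Total RNA was sequenced from 2 samples of PSC-derived salivary gland (SG) placodes on day 10 and from 2 samples of submandibular glands (SMGs) of E12.5 mouse embryos. Both placode samples derive from a single mouse embryonic stem cell line, 129w2, grown as aggregates from 3000 cells per well in 2% Matrigel. Day 3 brought 2 ng/ml BMP4, day 4 brought 25 ng/ml bFGF with 1 μM retinoic acid, and 200 ng/ml FGF10 was present from day 6. The SMGs were untreated tissue, and neither the strain of the embryos nor the share of epithelium left after dissection was given. The comparison asks how far the placodes made in culture resemble the embryonic gland. The sources used here do not say that the 2 samples of a group came from separate cultures or animals, so p-values measure only the spread between these samples, which may be technical.

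Against the label, several epithelial markers of the early gland were at or near 0 in these placode RNA values. The paper, by contrast, reports by quantitative PCR that FGF10 raised Krt5 and Krt14. It also reports Krt5 protein in duct-like structures on day 10. The source of this difference was not tested. Both placode samples listed Krt5, Krt14 and Krt15 at 0, Trp63 was at 0.0287 and 0.0262, while Krt15 reached 128 and 121 FPKM (mapped fragments scaled to transcript length and to all fragments of the sample) in the SMGs. The other 4 epithelial markers, Cdh1, Epcam, Krt8 and Krt18, reached at least 1 FPKM in both placode samples. Of all 8, 6 were called lower in the placodes, 2 were not called and 0 were called higher. Both groups also held markers of other cells. Depth cannot be recovered from FPKM, so no counting interval is given. The values summed to between 361963 and 384773 per sample, and mitochondrial transcripts made up 5.88% to 5.93% of the sum in the placodes and 8.07% to 10.7% in the SMGs. No sequencing date or batch was named, so a batch that follows the groups cannot be told apart from them.

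The ER folds secreted and membrane proteins with the help of chaperones and enzymes that form disulfide bonds. When unfolded proteins build up, the sensors Ern1, Atf6 and Eif2ak3 start the unfolded protein response, which raises chaperones and degradation genes. Eif2ak3 is also 1 of several kinases that phosphorylate the initiation factor eIF2. This lowers general translation and favours that of Atf4, which switches on genes of amino acid supply, one-carbon metabolism and, under lasting stress, cell death, the integrated stress response. Secretory tissues are known for a large ER and high chaperone levels.

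Most chaperones (7 of 11) and all 4 disulfide isomerases of the ER were lower in the placodes than in the SMGs, and most genes of the Atf4 arm were higher, although Atf4 itself was slightly lower. Among the 25 ER genes, 15 were lower, 4 were higher and 6 were not called, with a median log2 fold change of -0.42. Among the 13 Atf4-arm genes, 9 were higher, 1 was lower and 3 were not called, with a median of 0.52. Fold changes are of log2(FPKM + 1), placodes over SMGs, and a gene was called at an adjusted p below 0.05 in limma's test over 13193 features. Of all those features, 35.7% were called higher and 40.4% lower, and their median log2 fold change was -0.05. The groups were thus far apart in most of the transcriptome, and over all 38 genes the share called, 76.3%, was near the 76.2% of all features. Differences of at least 2-fold were called for 5 genes upwards (Chac1, Sesn2, Asns, Psat1 and Ddit3), where 14.1% of all features were, and for 5 genes downwards (Hspa5, Pdia3, Pdia4, Dnajc3 and Ern1), where 15.2% were. For 35 of the 38 genes, both samples of 1 group lay beyond both of the other, as they did for 88.4% of all features. The other genes were Dnajb9, Atf3 and Mthfd2. With 2 samples against 2, an exact permutation test of a single gene cannot give a p below 0.333. In bulk RNA, fewer cells of a type and less RNA per cell cannot be told apart.

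**Figure D1:**
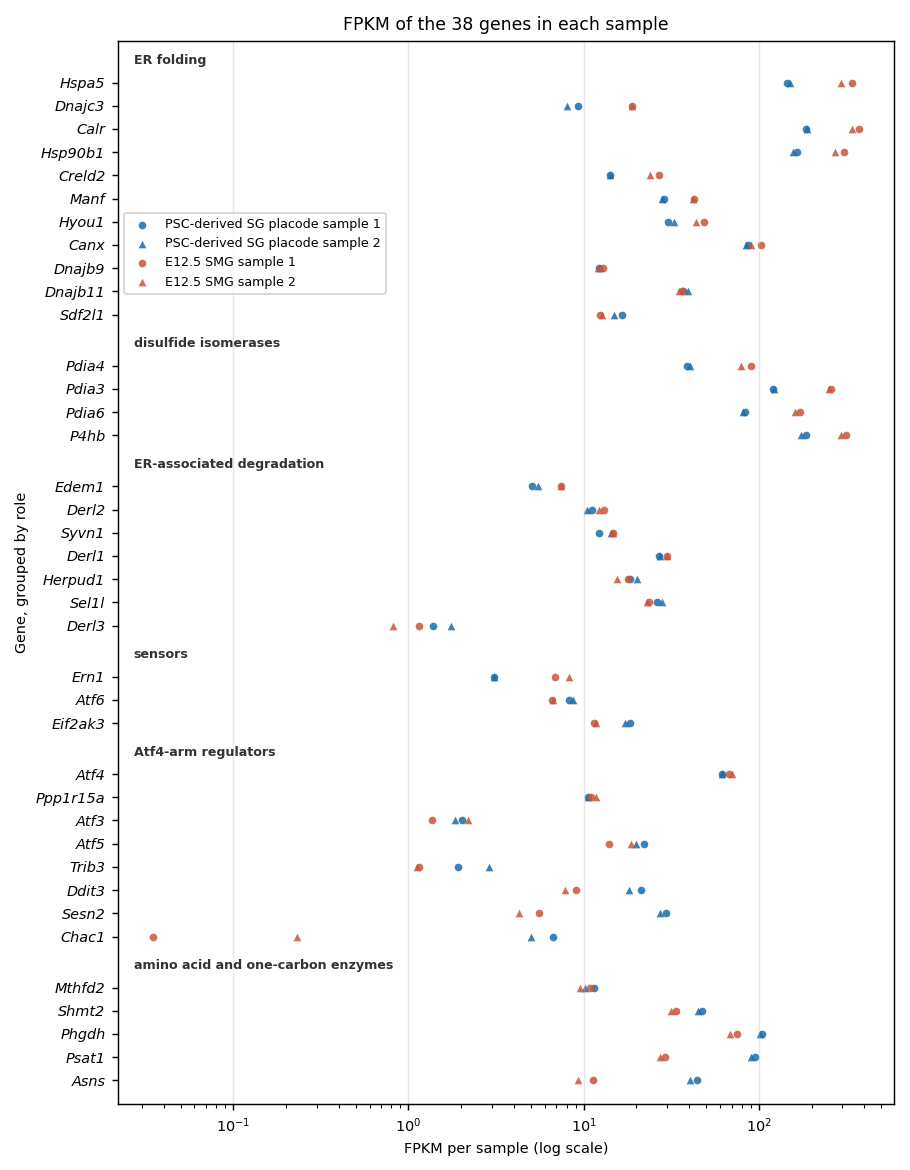
FPKM of the 38 genes (log scale) in each of the 4 samples, with PSC-derived SG placodes in blue and E12.5 SMGs in red, ordered by role and fold change. The samples of a group lie close together for most genes, all 4 disulfide isomerases lie to the left in the placodes, and Chac1 has the widest gap between the groups.

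Replicates of a group were close for these genes. The median absolute difference between the 2 samples was 0.08 in the placodes and 0.10 in the SMGs on the log2(FPKM + 1) scale, and all 38 genes differed by less than 2-fold within each group. The widest gaps were 0.41 for Trib3 in the placodes and 0.44 for Atf3 in the SMGs.

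Hspa5, known as BiP, is the main Hsp70 chaperone of the ER and holds the stress sensors inactive in unstressed cells. In GRCm38 it (ENSMUSG00000026864) spans bases 34771970 to 34777547 of chromosome 2. The placode samples had 145 and 151 FPKM and the SMG samples 342 and 295. Both SMG samples were thus above both placode samples, and the log2 fold change was -1.10 (standard error 0.08, adjusted p = 3.97e-05). Hsp90b1, the ER member of the Hsp90 family, had 165 and 157 FPKM in the placodes against 308 and 274 (log2 fold change -0.85, standard error 0.07, adjusted p = 7.47e-05). Calr, a lectin chaperone that binds calcium and newly made glycoproteins, had 185 and 188 against 374 and 340 (-0.93, standard error 0.06, adjusted p = 2.90e-05). Its membrane-bound relative Canx showed no such gap. Canx had 87.0 and 84.5 FPKM in the placodes and 103 and 90.4 in the SMGs, and its log2 fold change of -0.17 was not called (adjusted p = 0.0686), although it was called without SMG replicate 2 (adjusted p = 0.0158).

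The promoters of several of these genes hold the ER stress element, a bipartite motif bound by Atf6 together with NF-Y. It was searched as CCAAT, then 9 bases, then CCACG on both strands, in windows of 300 bases from 250 before to 50 after each RefSeq start site in GRCm38.p6. RefSeq gave a window for 34 of the 38 genes. The element was found in 9 of 21 ER genes with a window, 0 of 13 Atf4-arm genes and 39 of 32851 promoters (0.119%). Its last letters alone, CCACG, were in 19 of the 21, in 9 of the 13 and in 32.8% of all promoters. Of the 9 genes with the element, 6 were lower in the placodes (Hspa5, Hsp90b1, Calr, Pdia6, Dnajc3 and Creld2), 0 were higher and 3 were not called (Canx, Derl3 and Syvn1). With or without the element, 15 of the 25 ER genes were lower, compared with 40.4% of all features. Whether the element goes with direction was not tested. Matches are shown for the 3 abundant chaperones that were lower and for Canx and Syvn1, which were not called. They are written in the direction of the element, with its fixed letters in capitals.
Hspa5, chr2:34772021-34772047, gene on the + strand: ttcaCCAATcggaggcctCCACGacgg
Hsp90b1, chr10:86705634-86705660, gene on the - strand: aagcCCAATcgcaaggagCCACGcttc
Hsp90b1, chr10:86705529-86705555, gene on the - strand: ctcaCCAATcgtgcctcaCCACGcact
Calr, chr8:84847071-84847097, gene on the - strand: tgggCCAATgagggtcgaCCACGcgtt
Canx, chr11:50325796-50325822, gene on the - strand: ttgaCCAATcaccacgctCCACGaaga
Syvn1, chr19:6046528-6046554, gene on the + strand: gcaaCCAATcggcggtagCCACGggaa
The matches in Calr and the second one listed for Hsp90b1 read on the strand opposite to the gene. In Hspa5 the match began 65 bases before the start site. Both Canx and Hspa5 hold the element within these windows and differed in their values, so the letters alone did not separate the genes that were called from those that were not.

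The co-chaperones that help Hspa5 were not uniform. Dnajc3, a J-domain protein also known as p58IPK that damps Eif2ak3, had 9.30 and 7.99 FPKM in the placodes and 18.9 and 19.0 in the SMGs (log2 fold change -1.05, standard error 0.08, adjusted p = 5.93e-05). Hyou1, a nucleotide exchange factor of Hspa5, had 30.2 and 32.6 against 48.7 and 43.9 (-0.55, standard error 0.07, adjusted p = 5.56e-04). In both genes the placode samples were the low ones. Dnajb11, a J-domain protein of the folding complex, had 37.1 and 39.5 FPKM in the placodes and 36.3 and 35.0 in the SMGs and was not called (0.10, adjusted p = 0.135). Dnajb9, which holds Hspa5 on Ern1, had 12.2 and 12.3 against 12.8 and 12.1, and these values overlapped. Its log2 fold change was -0.02 (standard error 0.07), and its sign turned with an equal sum per sample, with median-ratio scaling and without SMG replicate 1.

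Sdf2l1, which works with Dnajb11 and Hspa5, was the only one of the 11 folding genes that was called higher. The placode samples had 16.6 and 15.0 FPKM, above the SMG samples with a mean of 12.6 (SD 0.245, n = 2), and the log2 fold change was 0.30 (standard error 0.07, adjusted p = 0.01003). The call was lost without placode replicate 1 or without either SMG sample, with adjusted p-values up to 0.0701. Creld2, a cysteine-rich protein of the ER, had 14.2 FPKM in both placode samples and 27.0 and 23.8 in the SMGs (log2 fold change -0.79, adjusted p = 1.21e-04). Manf, a stress-induced factor that binds Hspa5, had 28.9 and 28.1 against 42.5 and 42.1 (-0.56, adjusted p = 9.39e-05). Thus 7 of the 11 folding genes were lower and 1 higher, against 40.4% and 35.7% of all features, and 3 were not called. Their summed FPKM was 731 in each placode sample and 1325 and 1187 in the SMG samples.

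All 4 protein disulfide isomerases, which make and reshuffle disulfide bonds, were lower in the placodes. Pdia3, which works with the lectins Calr and Canx, had 120 and 121 FPKM in the placodes and 257 and 252 in the SMGs (log2 fold change -1.07, standard error 0.05, adjusted p = 4.67e-06). Pdia4 had 39.0 and 40.3 against 89.7 and 79.5 (-1.07, adjusted p = 2.14e-05). Pdia6, which also acts on Ern1, had 83.1 and 81.6 against 171 and 160 (adjusted p = 1.02e-05). The ratio of its mean FPKM values was 2.01, SMGs over placodes, and on the log2(FPKM + 1) scale it missed 2-fold narrowly. In each of these genes the higher placode sample was below the lower SMG sample by a wide margin. P4hb, which is both an isomerase and the second subunit of collagen prolyl 4-hydroxylase, had 186 and 173 FPKM against 313 and 296 (-0.76, adjusted p = 6.01e-05). The 4 genes together summed to 429 and 416 FPKM in the placodes and to 831 and 787 in the SMGs.

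The genes of ER-associated degradation, which pull misfolded proteins out of the ER and mark them with ubiquitin, differed little. Their summed FPKM was 101 and 108 in the placodes and 108 and 104 in the SMGs, so the sums overlapped. Edem1, a mannosidase-like protein that picks out misfolded glycoproteins, was the clearest of the 7, with 5.09 and 5.47 FPKM in the placodes and 7.42 and 7.39 in the SMGs (log2 fold change -0.42, standard error 0.08, adjusted p = 4.04e-03). Sel1l, the scaffold of the ubiquitin ligase complex, had 26.2 and 28.0 against 23.7 and 22.9 and was called higher (0.21, adjusted p = 0.0167). Syvn1, the ligase that Sel1l holds, was not called, with 12.2 and 14.3 FPKM against 14.7 in both SMG samples (-0.15, adjusted p = 0.173). The derlins, membrane proteins of the same complex, split. Derl1 had 26.9 and 27.4 FPKM in the placodes against 30.0 in both SMG samples (-0.14, adjusted p = 0.0426), and Derl2 had 11.1 and 10.5 against 13.1 and 12.2 (-0.21, adjusted p = 0.0383). Derl3, the least abundant member, had 1.38 and 1.74 against 1.15 and 0.820 and was not called (0.37, adjusted p = 0.0515). Herpud1, which links the ligase to the derlins, had 18.5 and 20.1 against 17.8 and 15.6 (0.20, adjusted p = 0.0716). The calls of Derl1 and Derl2 were lost without any single sample and when the samples were rescaled to an equal sum or by median ratios, where Derl3, Herpud1 and Dnajb11 were called higher. Sel1l lost its call without placode replicate 2 or SMG replicate 2, while Syvn1 was called lower without placode replicate 2, and Derl3 and Herpud1 higher without SMG replicate 1. Without the trend in eBayes, Derl1 lost its call and Derl3 was called higher. Under either scaling the 38 genes split into 16 higher and 13 lower, against 13 higher and 16 lower as measured here.

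The 3 sensors of the unfolded protein response went different ways. Ern1, known as IRE1α, which splices Xbp1 mRNA, had 3.07 and 3.09 FPKM in the placodes and 6.89 and 8.25 in the SMGs. Both SMG samples were above 2 times the placode values, and the log2 fold change was -1.07 (standard error 0.11, adjusted p = 1.81e-04). Eif2ak3, known as PERK, was higher in the placodes, with 18.4 and 17.3 FPKM against 11.5 and 11.7 (0.58, standard error 0.06, adjusted p = 2.88e-04). Atf6, a membrane-bound transcription factor freed by cleavage in the Golgi, had 8.23 and 8.65 against 6.62 and 6.69 (0.30, adjusted p = 0.0123), and it lost its call without placode replicate 2 or without either SMG sample. FPKM values give the amount of these mRNAs and say nothing of splicing, phosphorylation or cleavage of the sensors.

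**Figure D2:**
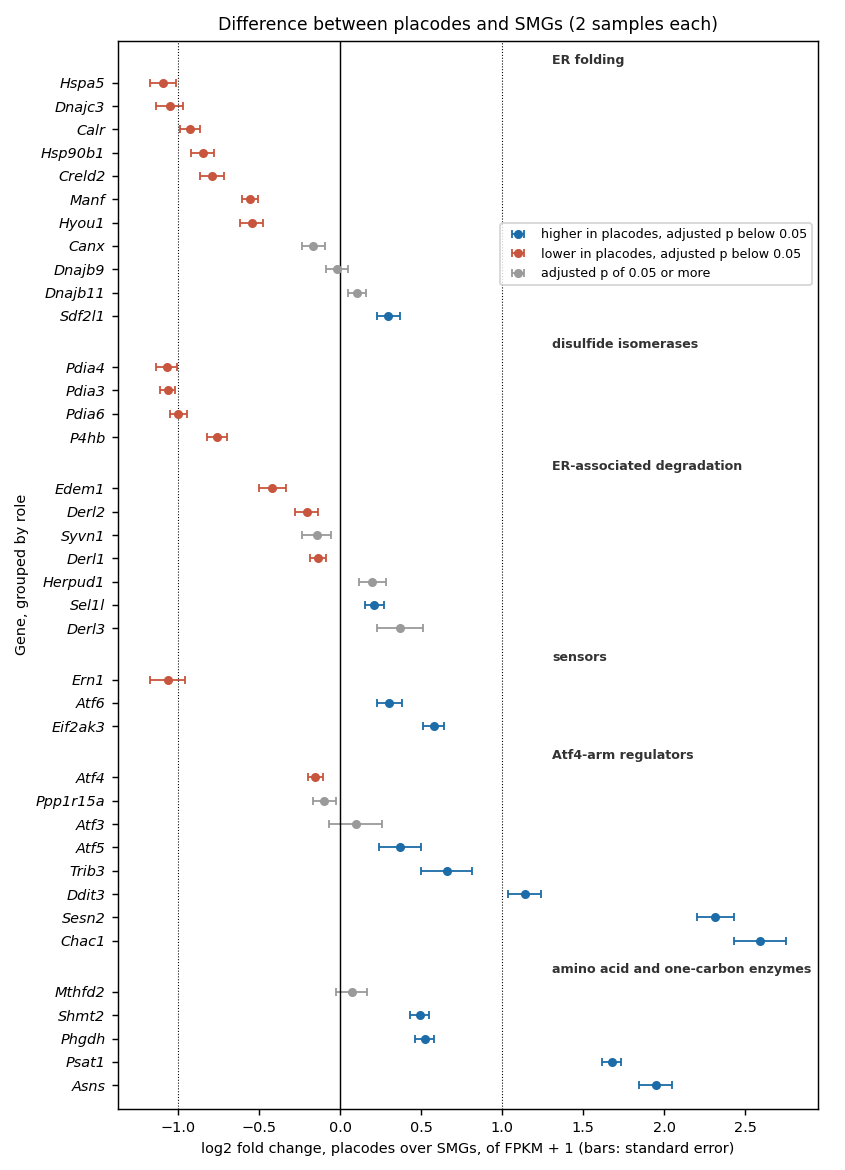
Log2 fold change of FPKM + 1, placodes over SMGs, for the 38 genes with its standard error (2 samples in each group), blue where higher, red where lower and grey where not called, with dotted lines at 2-fold. The disulfide isomerases lie between -1.07 and -0.76, while Chac1, Sesn2, Asns and Psat1 lie farthest to the right.

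Other genes of the secretory pathway were mostly lower in the placodes, apart from degradation genes. They came from wider lists chosen with earlier results of these data known, so they are no independent check. Of 30 other ER folding enzymes tested, 20 were lower and 5 higher (median -0.71), against 40.4% and 35.7% of all features. Fkbp10, a prolyl isomerase of collagen folding, was lowest at -3.66 (adjusted p = 2.22e-07), and Ppib, the most abundant, had 139 and 133 FPKM against 248 and 228 (-0.80, adjusted p = 4.35e-05). Ero1l, the oxidase that recharges the disulfide isomerases, was the highest of the 5, with 112 and 93.2 FPKM in the placodes against 15.2 and 14.3 (2.71, standard error 0.09, adjusted p = 1.64e-06). Of 27 genes of the translocon, signal peptidase and oligosaccharyl transferase, which bring proteins into the ER and glycosylate them, 20 were lower and 3 higher (median -0.48). Srpr, the signal recognition particle receptor, was lowest (-1.19), Tusc3 highest (0.71) and Ssr3 the most abundant (-0.48). Of 25 other degradation genes, 9 were lower and 10 higher (median 0.01), from Edem3 at -0.83 to Rnf5 at 0.98, and the most abundant, Vcp, the ATPase that extracts the substrates, was not called (128 and 129 FPKM against 131 and 130). Of 15 genes of ER-phagy and the calcium store, 11 were lower and 2 higher (median -0.26), with Rcn3 at -1.15 and the abundant Calu at -0.77, while Rtn3 was higher (1.43).

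Of 14 other regulators of the unfolded protein response, 12 were lower and 2 higher (median -0.58), against 40.4% and 35.7% of all features. Creb3l2, a membrane-bound relative of Atf6 that drives secretory genes, had 3.69 and 4.15 FPKM in the placodes and 37.7 and 37.5 in the SMGs (-2.97, standard error 0.07, adjusted p = 5.50e-07). Mbtps2, a protease that cleaves Atf6, was highest (0.34, adjusted p = 6.05e-03), and Rtcb, the ligase that joins spliced Xbp1, was the most abundant (-0.21, adjusted p = 5.89e-03). Xbp1, named here after its values were seen as the substrate of Ern1, had 22.9 and 21.0 FPKM in the placodes against 52.8 and 52.5 (-1.23, standard error 0.06, adjusted p = 6.63e-06). Both Ern1 and Xbp1 were thus lower in both placode samples.

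Like most ER genes, markers of several other cell types were mostly lower in the placodes. Neural progenitor and neuron markers went the other way and are given below. All 10 mesenchyme markers were lower in the placodes, with a summed FPKM of 221 to 224 against 2104 to 2150, and none of the 10 was at 0. Of 12 collagen folding enzymes, 8 were lower and 2 higher (median -1.20), against 40.4% and 35.7% of all features. Serpinh1, the collagen chaperone, had 112 and 105 FPKM against 385 and 400 (-1.85, adjusted p = 1.10e-06). Crtap was lowest (-3.43) and P4ha2 highest (1.46). All 6 endothelial markers were lower (9.67 to 10.1 against 126 to 135), as were all 6 erythroid markers tested (0.0258 to 0.255 against 2932 to 2945, with 4 at 0 in both placode samples). The same held for 5 of 5 macrophage markers (2.50 to 3.02 against 19.5 to 21.0, with C1qa at 0), 5 of 5 skeletal muscle markers (1.91 to 2.28 against 72.8 to 102, with Myog and Myf5 at 0) and 3 of 4 Schwann and neural crest markers (7.43 to 8.64 against 36.6 to 39.6). The epithelial list summed to 58.1 to 64.0 against 344 to 380. The part of these cells in the lower ER values was not tested.

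In the Atf4 arm, Atf4 itself, the transcription factor at its centre, differed little. Its FPKM was 61.6 and 61.7 in the placodes and 67.4 and 70.1 in the SMGs, and the log2 fold change was -0.16 (standard error 0.05, adjusted p = 0.0229). The call was lost with an equal sum per sample, with median-ratio scaling, without the trend in eBayes, and without placode replicate 1, placode replicate 2 or SMG replicate 2. Atf4 is controlled mainly in its translation, which RNA levels do not show. Atf5, a related factor controlled in the same way, had 22.1 and 20.0 FPKM against 14.0 and 18.5 (0.37, adjusted p = 0.0397), and its call was lost with no minimum of mean FPKM, without the trend in eBayes, and without placode replicate 1, placode replicate 2 or SMG replicate 1. Atf3, an early stress-induced factor, had 2.03 and 1.84 FPKM in the placodes and 1.36 and 2.20 in the SMGs. The SMG samples lay on both sides of the placodes, and Atf3 was not called (0.09, standard error 0.17, adjusted p = 0.623).

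Ddit3, known as CHOP, a transcription factor of the late, death-promoting phase, was higher in the placodes. It spans bases 127290774 to 127296288 of chromosome 10, and its FPKM was 21.3 and 18.2 in the placodes and 9.07 and 7.81 in the SMGs (log2 fold change 1.14, standard error 0.10, adjusted p = 1.07e-04). Its exons overlap those of Mars on the opposite strand, and without the strandedness of the libraries reads of the overlap cannot be told apart. The exons of 13 of the 38 genes overlap another gene, such as Pdia3 with Catsper2, Atf5 with Nup62 and Shmt2 with Ndufa4l2, each on the opposite strand. Some overlaps are on the same strand, such as Hsp90b1 with Gm15344 and Manf with Rbm15b, where strandedness would not separate the reads. Mars, a methionyl-tRNA synthetase gene, had 41.5 and 42.5 FPKM against 28.0 and 25.0 (0.65). Trib3, a pseudokinase that restrains Atf4 and Ddit3, was low throughout, with 1.92 and 2.88 FPKM against 1.15 and 1.12 (0.66, standard error 0.16, adjusted p = 8.98e-03). Its placode samples differed more from each other than those of any other of the 38 genes, and the call was lost without either SMG sample. Ppp1r15a, known as GADD34, which brings a phosphatase to eIF2 and so ends the response, had 10.6 and 10.5 FPKM against 11.1 and 11.7 and was not called (-0.10, adjusted p = 0.235). Ddit3 and Ppp1r15a, both textbook targets of Atf4, thus did not move together here.

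Chac1 (ENSMUSG00000027313, chromosome 2, bases 119351229 to 119354381), an enzyme that degrades glutathione, had the largest fold change of the 38 genes. Its FPKM was 6.69 and 5.01 in the placodes and 0.0350 and 0.232 in the SMGs, so the SMG samples were near 0. The log2 fold change was 2.59 (standard error 0.16, adjusted p = 2.09e-05) and became 4.80 with a pseudocount of 0.1, since its size depends on how values near 0 are treated. Sesn2, which senses leucine and restrains mTORC1, had 29.4 and 27.3 FPKM against 5.58 and 4.28 (2.32, standard error 0.11, adjusted p = 7.67e-06). For Sesn2 the ratio of the mean FPKM values was 5.75. Thus 5 of the 8 regulators were higher and 1 lower, against 35.7% and 40.4% of all features, and 2 were not called. All 3 that differed by at least 2-fold were higher.

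The C/EBP-ATF response element, the motif through which Atf4 acts with C/EBP partners, was searched in the same promoter windows as TGATGNAA on both strands. It was in 4 of the 13 Atf4-arm genes, in 1 of the 21 ER genes (Herpud1) and in 3.97% of all promoters, and no match overlapped an ER stress element. Of these 5 genes, 3 were higher in the placodes, 0 were lower and 2 were not called (Atf3 and Herpud1). With or without the motif, 9 of the 13 Atf4-arm genes were higher, compared with 35.7% of all features. The Atf4-arm matches are shown in the direction of the motif, with its fixed letters in capitals.
Asns, chr6:7693217-7693240, gene on the - strand: cagccacaTGATGaAActtcccgc
Chac1, chr2:119351041-119351064, gene on the + strand: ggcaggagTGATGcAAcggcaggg
Trib3, chr2:152344031-152344054, gene on the - strand: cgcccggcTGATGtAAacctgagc
Atf3, chr1:191183428-191183451, gene on the - strand: ggacttggTGATGcAAgtgcgaga
Apart from Asns, these matches read on the strand opposite to the gene. Sesn2, Psat1 and Ddit3, which were also at least 2-fold higher, had no match in this window, which says only that these letters are not in it.

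Enzymes of amino acid supply were higher in the placodes. Asns (ENSMUSG00000029752), which makes asparagine, spans bases 7675169 to 7693254 of chromosome 6, and its FPKM was 44.6 and 40.5 in the placodes and 11.4 and 9.32 in the SMGs (log2 fold change 1.95, standard error 0.10, adjusted p = 9.08e-06). Psat1, which makes phosphoserine, the next-to-last step of serine synthesis, had 94.7 and 90.0 against 29.3 and 27.2 (1.67, standard error 0.06, adjusted p = 1.81e-06). These were ratios of mean FPKM of 4.11 for Asns and 3.27 for Psat1, with the placode samples well above the SMG samples. Phgdh, the enzyme of the first step of serine synthesis, had 105 and 101 FPKM against 74.6 and 68.5 (0.52, adjusted p = 2.88e-04). Its value is uncertain, because 63.1% of the 50-base stretches of its transcript also occur in other genes, mostly processed pseudogenes such as Gm7901. Shmt2, the mitochondrial enzyme that turns serine into glycine, had 47.7 and 44.7 against 33.7 and 31.6 (0.49, adjusted p = 4.01e-04). Mthfd2, the next mitochondrial enzyme of the one-carbon pathway, was not called, and its values overlapped, with 11.4 and 10.1 FPKM in the placodes and 10.9 and 9.51 in the SMGs (0.07, adjusted p = 0.518). The 5 enzymes together summed to 303 and 286 FPKM in the placodes and to 160 and 146 in the SMGs.

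**Figure D3:**
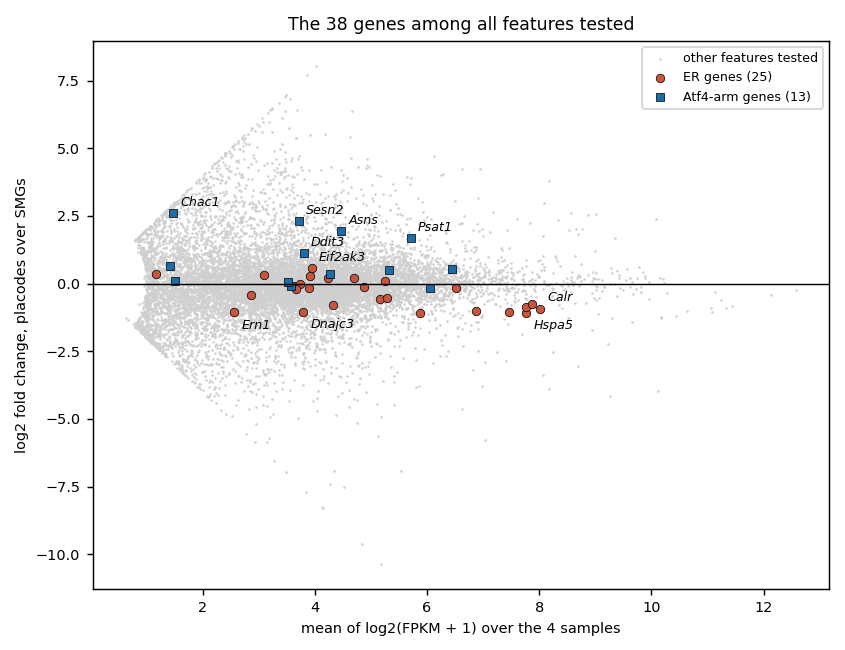
Log2 fold change of FPKM + 1, placodes over SMGs, against the mean of log2(FPKM + 1) over the 4 samples for the features tested (grey), with the 25 ER genes as red circles and the 13 Atf4-arm genes as blue squares. The most abundant ER genes lie below 0 and Psat1, Asns, Sesn2 and Chac1 above 0, while many other features lie further out.

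Wider lists of Atf4 targets were mostly higher. They too were chosen with earlier results of these data known and are no independent check. Of 10 other target regulators tested, 8 were higher and 1 lower (median 0.82), against 35.7% and 40.4% of all features. Ddit4, an inhibitor of mTORC1, had 226 and 199 FPKM in the placodes against 47.0 and 41.7 (2.23, standard error 0.08, adjusted p = 2.57e-06). Stc2, a secreted glycoprotein, was highest (2.97, adjusted p = 2.10e-05), and Cebpb, a partner of Atf4, was the one that was lower, with 4.84 and 3.24 FPKM against 24.1 and 17.8 (-2.13, adjusted p = 1.06e-04). Of 10 amino acid transporters, 7 were higher and 2 lower (median 1.04). Slc7a11, the cystine importer, had 10.4 and 10.8 FPKM against 1.06 and 2.09 (2.20, adjusted p = 8.60e-05), whereas Slc1a5 was lower (-1.68) and Slc38a2, the most abundant, was not called (68.6 and 80.1 against 86.6 and 83.1). Of 20 cytosolic aminoacyl-tRNA synthetases, which load amino acids onto tRNA, 12 were higher and 6 lower (median 0.39). Sars, which loads serine, had 128 and 124 FPKM against 60.1 and 51.1 (1.17, adjusted p = 3.18e-05), and Hars, which loads histidine, was lowest (-0.52).

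Serine and one-carbon metabolism split beyond the 5 enzymes. Of 19 other enzymes of serine, one-carbon and proline synthesis, 10 were higher and 9 lower (median 0.38), against 35.7% and 40.4% of all features. Gldc, which breaks down glycine in mitochondria, had 19.2 and 18.1 FPKM in the placodes against 1.76 and 1.75 (2.84, standard error 0.08, adjusted p = 9.45e-07). Tyms, which makes thymidylate for DNA synthesis, was lowest, with 3.26 and 3.90 against 20.1 and 23.1 (-2.31, adjusted p = 5.78e-06), and Aldh18a1, of proline synthesis, was the most abundant (0.38, adjusted p = 1.91e-03). The 15 genes of eIF2, its kinases and related factors differed little (median -0.02). Of them, 4 were higher and 5 lower, against 35.7% and 40.4% of all features. Their extremes were Impact, which restrains the kinase Eif2ak4, at 0.63 and the heme-regulated kinase Eif2ak1 at -0.49, and the most abundant, Eif2s3x, was not called (71.5 and 75.1 FPKM against 79.3 and 77.6).

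Hypoxia response genes and neural markers moved in the same direction as most genes of the Atf4 arm. Of 10 hypoxia response genes tested, all were higher in the placodes (median 2.63), against 35.7% of all features. The list summed to 3011 to 3156 FPKM against 440 to 515. Bnip3, a mitophagy receptor induced by low oxygen, had 440 and 418 FPKM against 23.6 and 20.3 (4.23, standard error 0.08, adjusted p = 2.29e-07). Ldha, lactate dehydrogenase, was the most abundant (1285 and 1228 against 234 and 190), and Ndrg1 had the smallest fold change (0.76). All 6 neural progenitor markers were higher (699 to 732 summed FPKM against 45.4 to 51.1), as were all 7 neuron markers (977 to 1014 against 83.1 to 92.8). The part of these cells and of the hypoxia response genes in the values of the Atf4 arm was not tested.

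**Figure D4:**
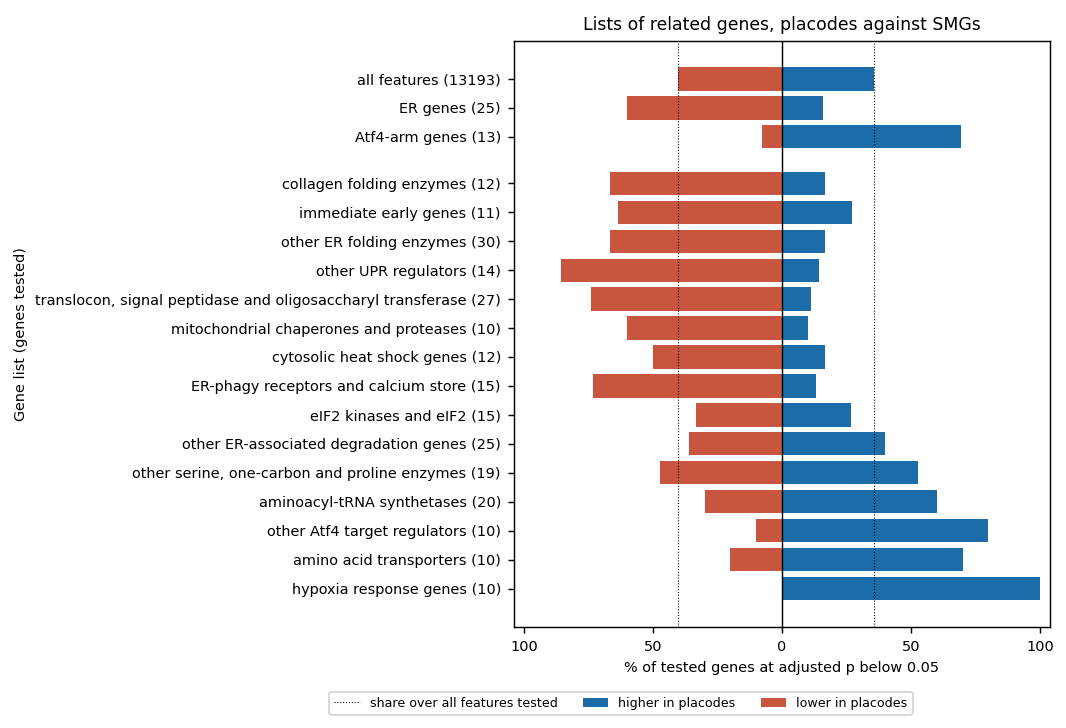
Percentage of tested genes that were higher (right, blue) or lower (left, red) in the placodes, for all features, the 25 ER genes, the 13 Atf4-arm genes and 15 wider lists ordered by median fold change, with the number tested in brackets and dotted lines at the share over all features. Lists of secretory genes extend to the left, lists of Atf4 targets extend to the right, and all 10 hypoxia response genes were higher.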

How the data were processed

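The authors mapped paired-end reads with HISAT2 and deposited FPKM values for each gene and sample. The submitters' processing notes name GRCm38 and GRCh38, with no role given. The version of HISAT2, the annotation, the strandedness and the program that computed FPKM were not given in the sources used here. Every sample column was mapped to a sample by its name.

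Values were taken as log2(FPKM + 1). In R 4.3.3, limma 3.58.1 (lmFit, eBayes with trend) compared the groups, with no covariate, in the 13193 features whose mean FPKM reached 1. The test was two-sided, its p-values were adjusted over those features by the Benjamini-Hochberg method, and genes were called at an adjusted p below 0.05. The procedure was also run on simulated data in which few features changed, whereas 76.2% were called here. That run does not cover a comparison in which most features differ. FPKM scales with the rest of the transcriptome of a sample, so 3 other scalings were tried (an equal sum per sample, median ratios, and rescaling without mitochondrial, hemoglobin and ribosomal protein genes), together with another pseudocount, other filters, a replicate block and each sample left out.

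The 38 genes, 15 wider lists and 9 cell type marker lists were chosen with earlier results of these data known. From each wider list, the called genes with the highest and lowest fold change and the most abundant gene are named. Positions and shared sequence came from GENCODE M21 (GRCm38), which held all 38 genes, of which 13 overlap exons of another gene. Promoter sequences came from RefSeq (GRCm38.p6). Figures were drawn with matplotlib 3.10.9 in Python 3.11.15.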

Additional observations from a re-analysis of the deposited data

How the results depend on the processing

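Of the 38 genes, 22 kept their direction and their side of the threshold under each of the 12 alternatives that tested them. At a minimum mean FPKM of 5, the low genes Derl3, Atf3, Trib3 and Chac1 were not tested. Scaling mattered for small differences: the median of all features moved from -0.050 to 0.0064 with an equal sum per sample (TPM) and to 0.0047 with median-ratio scaling. Rescaling without mitochondrial, hemoglobin and ribosomal protein genes left the calls of all 38 genes as they were. Under the first 2 scalings, 7 ER genes were called higher and 0 Atf4-arm genes lower, the latter also without the trend in eBayes. With single samples left out, 1 to 4 ER genes were higher (1 without SMG replicate 2, 2 without placode replicate 2) and 0 to 1 Atf4-arm genes lower (0 without placode replicate 1, placode replicate 2 or SMG replicate 2). Dnajb9, Atf3 and Mthfd2, none of them called, changed sign. The log2 fold change of Dnajb9 was 0.038 with an equal sum, 0.037 with median-ratio scaling and -0.057 to 0.020 with a sample left out. Atf3 ranged from -0.13 to 0.31 and Mthfd2 from -0.017 to 0.16 with a sample left out, and the cause was not tested.

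The differences between replicates 1 and 2 were not correlated between the 2 groups (r = -0.03 over 13193 features). A single difference per group cannot show whether samples were handled in pairs. With the replicate block, 13 genes were higher and 16 lower, Canx was called lower (adjusted p = 0.0371) and Derl1 lost its call (adjusted p = 0.0718). Groups of 2 samples do not allow a check for outlying samples, and the depth behind low values such as those of Chac1 is unknown.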

Other observations

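Chaperones outside the ER were also more often lower than higher in the placodes, with exceptions. Of all features, 40.4% were lower and 35.7% higher. Of 12 cytosolic heat shock genes tested, 6 were lower in the placodes and 2 higher, with a median log2 fold change of -0.34. Hsp90aa1, the inducible cytosolic Hsp90, was higher (329 and 343 FPKM against 200 and 180, log2 fold change 0.82, adjusted p = 6.64e-05), while its relative Hsp90ab1, the most abundant gene of the list, was lower (816 and 784 against 1043 and 963, -0.33, adjusted p = 8.14e-03). Bag3, a co-chaperone of Hsp70, was lowest (-1.35, adjusted p = 1.85e-05). Of 10 mitochondrial chaperones and proteases, 6 were lower and 1 higher (median -0.37). Hspd1, the mitochondrial Hsp60 and the most abundant gene of the list, had 112 and 110 FPKM against 175 and 162 (-0.59, adjusted p = 1.18e-04), and Hspa9, the only one that was higher, had 128 and 119 against 113 and 110 (0.15, adjusted p = 0.0488), a call that was lost under 6 of the 12 alternatives.

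Immediate early genes, which respond within minutes to growth factors and other stimuli, were mostly lower in the placodes, with 7 of 11 lower and 3 higher (median -1.18). Fos had 1.52 and 2.10 FPKM in the placodes and 39.5 and 40.7 in the SMGs (-3.88, adjusted p = 8.81e-07), Jun, the most abundant, was also lower (-1.18), and Btg2 was higher (2.98, adjusted p = 5.24e-07).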
